A study of Homo sapiens with 12 samples.

Results

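The genes described here are 9 human genes of RNA sensing and the interferon response, EIF2AK2, IFIH1, ADAR, MAVS, IRF3, IRF1, ISG15, IFIT1 and IFIT5. They were picked by gene name from a table of 58735 genes, each name was found once, and all 9 had enough reads to be tested. The question is whether RNA that carries 4-thiouridine sets off an innate response in the cells that made it.

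The RNA-Seq libraries came from HEK293T cells, a line derived from human embryonic kidney that carries the SV40 large T antigen and was not authenticated by the study. There were 12 libraries in 4 groups of 3. The DMSO group received the vehicle. The 4SU group received 4-thiouridine, a uridine analog with sulfur in place of an oxygen that cells build into new RNA, at 100 µM for 16 h. The CEP group received a clickable electrophilic purine, AHL-Pu-1, a probe that reacts with cysteines of proteins, at 25 µM for 1 h (one protocol in the labels prints 25 mM). The CEP+4SU group received both. The protocol for all groups includes UV light at 312 nm and 1 J/cm2, and whether cells without 4SU were irradiated is not given separately. The study describes its replicates as biologically independent, the labels do not say which cultures or days the libraries came from, and the p-values measure the spread between these libraries.

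Cells detect foreign or unusual RNA with proteins that bind double-stranded or unmodified RNA. The sensor IFIH1 (MDA5) binds long double-stranded RNA and signals through MAVS on mitochondria to the kinases TBK1 and IKBKE, which phosphorylate the transcription factor IRF3 and so turn on interferon genes. Secreted interferon then acts through its receptors on a shared promoter element and raises many interferon-stimulated genes, among them EIF2AK2, IFIH1, IRF1, ISG15, the IFIT genes and a long form of ADAR, so that the messages of these genes serve as readouts of the response.

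The promoter stretches that carry this element are shown because they are the letters through which interferon is known to act on these genes. The element was searched as GAAANNGAAA (ISRE) on both strands in the 250 bases before each RefSeq start site (GRCh38.p14), where the opposite strand reads TTTCNNTTTC. A promoter was found for 8 of the 9 genes, with no entry for IRF3. The element was in 3.02% of 35116 promoters. Counted by gene, with any promoter of the gene, it was in 3.71% of 27305 genes and in 28 of the 47 genes (59.6%) with a promoter out of a list of 60 interferon-stimulated genes. Among the genes followed here it was in ISG15, IFIH1, IFIT1 and IFIT5. IRF1 held another interferon-linked element, TTCNNNGAA (GAS), which was in 6.57% of all promoters (8.09% of genes) and reads the same letters on both strands. The letters of either element were not in the windows of EIF2AK2, ADAR and MAVS. Bases outside these windows were not searched, so the element may lie elsewhere in these genes. Capitals mark the matches, some of which overlap, and each stretch is written 5′ to 3′ on the strand of its gene.
ISG15 (chr1:1013369-1013414, plus strand): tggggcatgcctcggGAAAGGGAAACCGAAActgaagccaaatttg
IFIH1 (chr2:162318813-162318858, minus strand): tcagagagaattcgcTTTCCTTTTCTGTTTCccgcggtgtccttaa
IFIT1 (chr10:89392492-89392544, plus strand): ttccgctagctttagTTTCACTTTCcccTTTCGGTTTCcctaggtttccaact
IFIT5 (chr10:89414508-89414567, plus strand): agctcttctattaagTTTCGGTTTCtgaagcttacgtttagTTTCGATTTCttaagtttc
IRF1 (chr5:132490874-132490912, minus strand): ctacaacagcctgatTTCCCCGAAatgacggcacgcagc

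The pairs in ISG15 and IFIH1 share bases, at -113 and -107 of ISG15 and at -159 and -153 of IFIH1 counted from the start site, whereas those of IFIT1 (-116 and -103) and IFIT5 (-45 and -19) are apart. A further IFIH1 match at -21 is not printed. A match describes the letters in this window and is not a measured binding site.

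The libraries held 16569114 to 24644734 reads on genes. The CEP library of replicate 2 and the CEP+4SU library of replicate 2 had reads on fewer genes (22230 and 22627) than the other 10 (24376 or more). Some of the larger differences among the 9 genes that rest on them are given with and without them. All 7 HEK293T-like markers were found in all 12 libraries, with VIM at 210 to 262 CPM (counts scaled to a common library size by TMM, so that values compare between libraries) and the kidney lineage gene PAX2 at 5.24 to 9.19 CPM. The B cell gene MS4A1 and the T cell gene CD3E had no read. The 6 T cell markers summed to at most 0.415 CPM, and the 6 myeloid and B cell markers summed to 5.59 to 6.36 CPM with DMSO, 3.004 to 6.12 CPM with CEP, 6.54 to 7.82 CPM with 4SU and 4.89 to 6.39 CPM with both. The 6 melanoma markers summed to 29.3 to 30.1, 30.9 to 40.2, 32.1 to 33.9 and 31.1 to 33.8 CPM in the same order, with TYR at 0.

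All 9 genes were expressed, at levels that spanned from 47.0 FPKM for ADAR to 0.563 FPKM for IFIH1 (means of 12 libraries, reads per length of the gene model). ADAR, which edits adenosine to inosine in double-stranded RNA and so keeps the cell's own RNA from being sensed, was highest at 44.4 to 50.1 FPKM and above 94.8% of all tested genes. IRF3 (13.6 FPKM, 11.3 to 15.9), MAVS (12.1, 10.8 to 12.9) and EIF2AK2 (11.02, 8.80 to 14.1) came next, and their ranges overlapped. IFIT5 (4.36, 3.25 to 5.83) and ISG15 (4.35, 2.32 to 6.16) overlapped as well, and both were below EIF2AK2 in every library. IFIT1 followed at 2.05 FPKM (1.65 to 2.31). IRF1 (0.674, 0.586 to 0.906) and IFIH1 (0.563, 0.369 to 0.754) were lowest, with overlapping ranges, and IFIH1 was above 18.3% of tested genes. The sensor of long double-stranded RNA was thus the least abundant message of the 9 per length, while its adaptor MAVS was among the 4 most abundant. ADAR had 7401 to 11681 reads per library and a coefficient of variation of 4.17% over the 12 libraries, ISG15 had 46 to 110 reads and 23.3%, and IFIH1 had 44 to 69 reads and 18.0%, where the spread includes differences between groups.

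**Figure D1:**
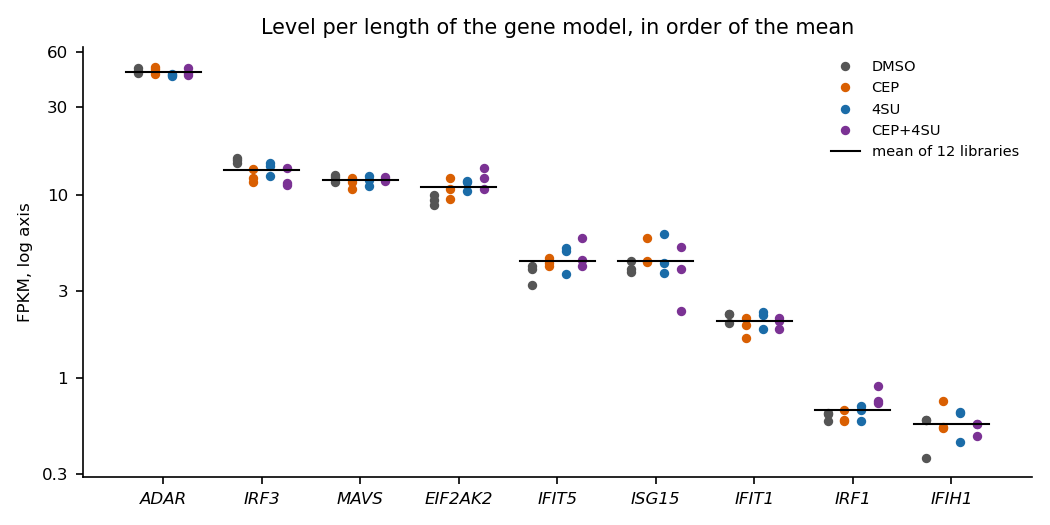
FPKM (log axis) of the 9 genes in each of the 12 libraries, coloured by group, with the mean of 12 libraries as a line. ADAR stood at 44.4 to 50.1 FPKM in all groups, and IRF1 and IFIH1 stayed below 1 FPKM in every library.

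To ask what 4SU did, the 6 libraries with 4SU were compared with the 6 without, averaged over CEP, in a model of all 12 libraries (edgeR quasi-likelihood test, Benjamini-Hochberg adjustment over 17729 genes). In bulk RNA, fewer cells with a message and less of it per cell cannot be told apart. None of the 9 genes passed the threshold of 0.05, in a comparison that called 0.558% of all tested genes (99), and 1 of 9 had an unadjusted p under 0.05 beside 12.6% of all genes. DESeq2 and limma called none of the 9 either. The log2 fold changes of the 9 ran from -0.097 (IRF3) to 0.23 (EIF2AK2), with a median of 0.0049 beside -0.0019 over all genes. The 95% intervals of all 9 lay between -0.45 and 0.47. Each interval thus excluded an averaged fold change below 0.732 or above 1.39 at this depth and spread. Without averaging the intervals were wider. Their fold changes reached from 0.768 to 1.71 for 4SU against DMSO and from 0.538 to 1.66 for 4SU in CEP-treated cells. No gene of the 9 had groups with and without 4SU that did not overlap, beside 1.35% of all tested genes.

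**Figure D2:**
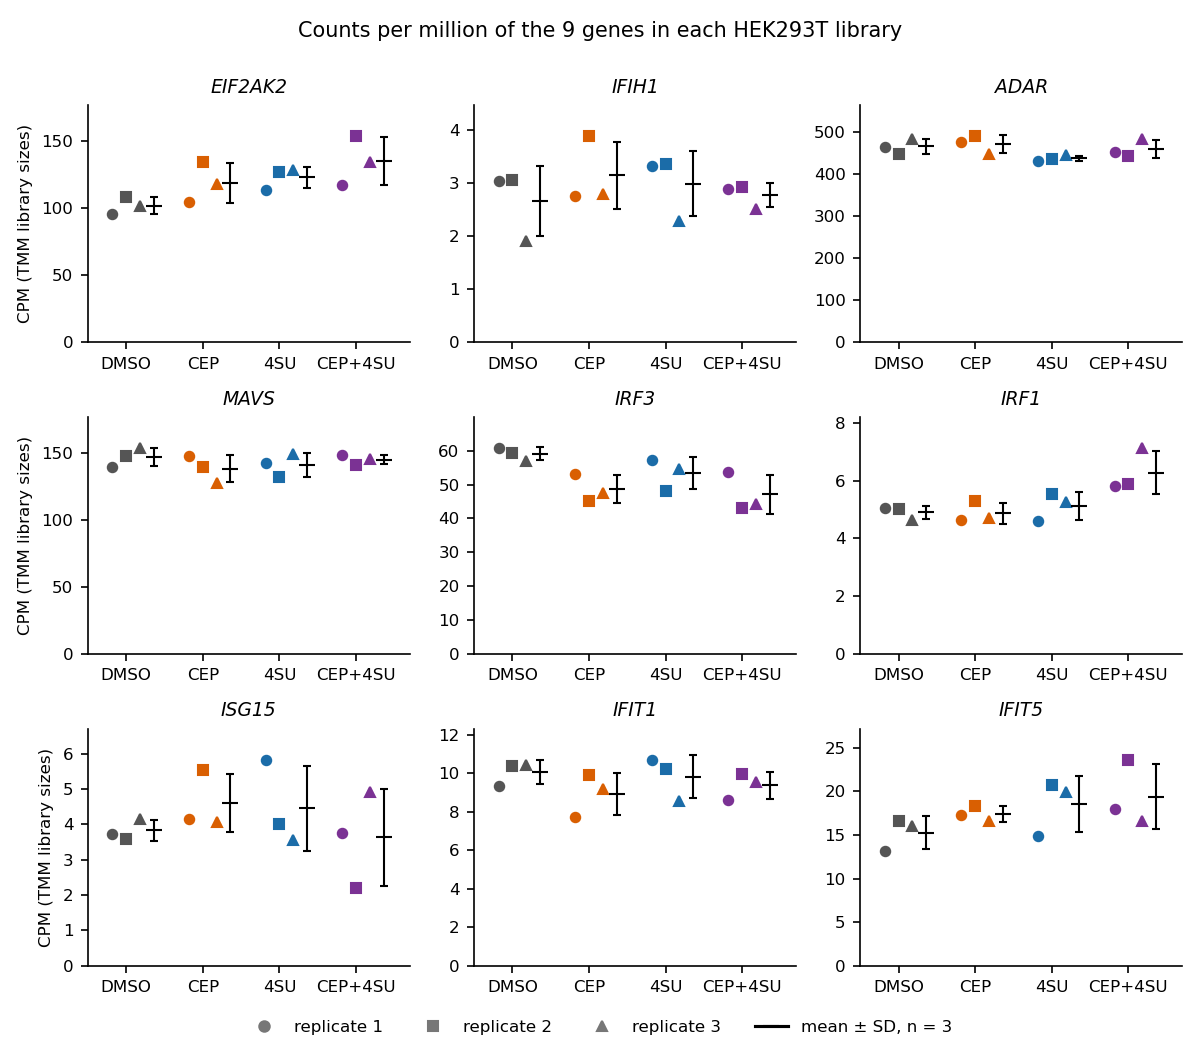
CPM of each gene by library and group, with the replicate number as marker and mean ± SD (n = 3) in black, on axes that start at 0. EIF2AK2 in the 3 CEP+4SU libraries (117 to 153 CPM) lay above the 3 DMSO libraries (95.2 to 108 CPM), while the groups of IFIT1 and MAVS overlapped.

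Of the sensors, IFIH1 was at 3.04, 3.05 and 1.91 CPM in the DMSO libraries and 3.34, 3.36 and 2.29 CPM in the 4SU libraries. It was at 2.77, 3.89 and 2.80 CPM with CEP and 2.90, 2.92 and 2.51 CPM with both. All groups overlapped, and the change with 4SU was -0.0033 on the log2 scale (SE 0.19, adjusted p = 0.998). EIF2AK2, also known as PKR, is the kinase that double-stranded RNA activates to phosphorylate eIF2α and halt translation. Its levels were 95.2, 108 and 102 CPM with DMSO, 114, 127 and 128 CPM with 4SU, 104, 134 and 117 CPM with CEP and 117, 153 and 134 CPM with both. The 3 libraries with 4SU alone lay above the 3 with DMSO, and the CEP libraries overlapped with both groups. The 4SU and DMSO groups did not overlap in 17.9% of all tested genes. Averaged over CEP, EIF2AK2 was 0.23 higher with 4SU (SE 0.073, 95% interval 0.079 to 0.38, adjusted p = 0.158), the smallest adjusted p of the 9. It passed without the filter on low counts (adjusted p = 0.0356, where 0.873% of all genes passed) and did not with DESeq2 (0.0637). ADAR was at 465, 450 and 484 CPM with DMSO and 432, 436 and 445 CPM with 4SU, where the groups did not overlap, and at 477, 490 and 449 CPM with CEP and 452, 443 and 484 CPM with both. Its difference with 4SU was -0.065 (SE 0.047, adjusted p = 0.614), and the FPKM and CPM values count all transcripts of the gene, so the interferon-driven long form was not measured apart.

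MAVS was the steadiest of the signalling genes, with 140, 148 and 154 CPM in DMSO and 143, 132 and 149 CPM in 4SU. CEP gave 148, 140 and 128 CPM and both gave 149, 142 and 146 CPM. The groups overlapped throughout, and the difference with 4SU was 0.0049 (SE 0.055, interval -0.11 to 0.12). IRF3, which is stored in the cytoplasm and acts once phosphorylated, so that its message need not change in a response, was at 60.8, 59.5 and 57.1 CPM in DMSO. It was at 57.2, 48.2 and 54.7 CPM with 4SU, 53.2, 45.1 and 47.5 CPM with CEP and 53.7, 43.2 and 44.4 CPM with both. The CEP and CEP+4SU libraries lay below all DMSO libraries, and the difference with 4SU was -0.097 (SE 0.071, adjusted p = 0.627). Groups that did not overlap with DMSO were found in 23.7% of all tested genes with CEP and 28.7% with both. IRF1, a transcription factor whose own message is induced by interferon, was at 5.06, 5.03 and 4.65 CPM with DMSO and 4.61, 5.54 and 5.27 CPM with 4SU. It was at 4.63, 5.30 and 4.70 CPM with CEP and 5.80, 5.90 and 7.13 CPM with both. Only the group with both compounds lay above DMSO without overlap, and the difference with 4SU was 0.22 (SE 0.12, adjusted p = 0.493).

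Among the interferon-stimulated effectors, ISG15, a ubiquitin-like modifier that is joined to other proteins, was at 3.74, 3.60 and 4.15 CPM with DMSO. It was at 5.82, 4.01 and 3.55 CPM with 4SU, 4.15, 5.54 and 4.08 CPM with CEP and 3.76, 2.20 and 4.92 CPM with both. The highest and the lowest of the 12 values were both in libraries with 4SU, and the difference was -0.059 (SE 0.19, interval -0.45 to 0.33). It was 0.15 without CEP 2 and CEP+4SU 2 (adjusted p = 0.758). IFIT1, which binds RNA whose cap lacks a methyl group, was at 9.33, 10.4 and 10.5 CPM with DMSO and 10.7, 10.2 and 8.55 CPM with 4SU. It was at 7.72, 9.90 and 9.16 CPM with CEP and 8.60, 9.97 and 9.54 CPM with both. These groups overlapped, and the difference was 0.018 (SE 0.10, interval -0.20 to 0.24). IFIT5, which binds the 5′ phosphates of uncapped RNA, was at 13.1, 16.6 and 16.1 CPM with DMSO, 14.9, 20.8 and 19.97 CPM with 4SU, 17.3, 18.4 and 16.6 CPM with CEP and 17.9, 23.6 and 16.6 CPM with both. Its difference with 4SU was 0.22 (SE 0.11, interval -0.0048 to 0.44, adjusted p = 0.407). ISG15, IFIT1, IFIT5 and IFIH1, whose promoters hold the ISRE letters printed above, thus had log2 differences with 4SU from -0.059 to 0.22, and none passed the test.

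The effect of 4SU was also read without CEP and with CEP separately. With 4SU against DMSO, 0 of the 9 genes passed, in a comparison that called 0.00564% of tested genes (1 gene). The groups of EIF2AK2 (0.27, SE 0.10, adjusted p = 0.721) and ADAR (-0.091, SE 0.066) did not overlap, 2 of 9 genes beside 17.9% of all tested genes. In CEP-treated cells, 4SU again moved none of the 9 past the threshold, where 0.00564% of genes were called. There IRF1 was 0.37 higher (SE 0.17, adjusted p = 0.558) with groups that did not overlap, 1 of 9 beside 11.7% of all genes. EIF2AK2 was 0.19 higher (SE 0.10, adjusted p = 0.618), or 0.081 without CEP+4SU 2, 0.094 without CEP 1 and 0.18 without CEP 2 and CEP+4SU 2. Whether 4SU acted differently with and without CEP was tested as an interaction, which called 0 genes of 17729 with edgeR (0% of tested genes, 2.63% at an unadjusted p under 0.05) and 0 with DESeq2 or limma. The 9 genes ran from -0.56 (ISG15, interval -1.34 to 0.23) to 0.30 (IRF1, interval -0.22 to 0.82) in it, and none had an unadjusted p under 0.05. With 4SU in CEP-treated cells, ISG15 was at -0.34, and at 0.079 without CEP 2 and CEP+4SU 2. With 4SU against DMSO, ISG15 was at 0.22, and at 0.23 without those libraries.

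**Figure D3:**
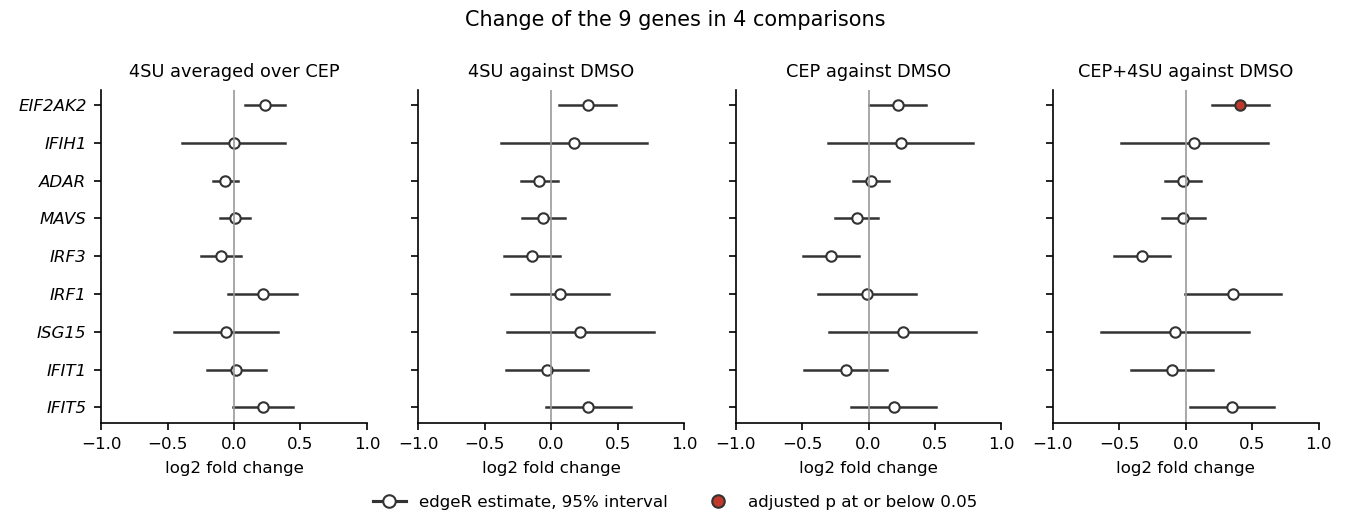
edgeR log2 fold changes (points) with 95% intervals (bars) of the 9 genes in 4 comparisons, filled where the adjusted p is at or below 0.05. The only filled point is EIF2AK2 with CEP+4SU against DMSO, and the 3 comparisons with DMSO share the DMSO libraries.

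CEP alone was compared with DMSO to separate the probe from the thiolated RNA. None of the 9 genes passed, in a comparison that called 0.0564% of tested genes (10), and 2 had an unadjusted p under 0.05 beside 18.6% of all genes. These were IRF3, at -0.28 (SE 0.10, adjusted p = 0.191), and EIF2AK2, at 0.22 (SE 0.10, adjusted p = 0.259). The groups of IRF3 did not overlap, 1 of 9 genes beside 23.7% of all genes. EIF2AK2 was at 0.13 without CEP 2 and at 0.068 with the trend of counts with GC content removed. Averaged over 4SU, where 0.276% of genes were called, CEP likewise gave 0 calls among the 9. IRF3 was 0.23 lower on the log2 scale with CEP (log2 fold change -0.23, SE 0.071, adjusted p = 0.0846) and EIF2AK2 was 0.18 higher (SE 0.073, adjusted p = 0.145). EIF2AK2 was at 0.077 without CEP 2 and CEP+4SU 2 (adjusted p = 0.571) and 0.057 with the GC trend removed (0.658), and it passed without CEP 1 (0.22, adjusted p = 0.0447). The call of IRF3 for CEP averaged over 4SU turned on the method, with an adjusted p of 0.0269 in DESeq2, 0.0341 without the filter on low counts and 0.690 with the GC trend removed, where the difference was -0.056. It was also 0.0287 without CEP 1 and 0.0315 without CEP+4SU 1, and 0.235 without CEP 2 and CEP+4SU 2 (-0.18). These settings also called more of all genes, at 15.6% of those with an adjusted p in DESeq2, 4.06% without the filter, 11.8% without CEP 1 and 6.16% without CEP+4SU 1.

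With both compounds together, EIF2AK2 rose, by 0.41 on the log2 scale (SE 0.10, 95% interval 0.19 to 0.62, 1.33-fold, adjusted p = 0.0495). It was the only one of the 9 called, in a comparison that called 1.64% of tested genes (290) and 0.643% as higher (114). The mean went from 102 ± 6.34 CPM with DMSO to 135 ± 18.0 CPM with both (SD, n = 3), and all 3 CEP+4SU libraries lay above all 3 DMSO libraries. IRF3 (-0.33, SE 0.10, adjusted p = 0.0849), IRF1 (0.35, SE 0.17, adjusted p = 0.241) and IFIT5 (0.35, SE 0.15, adjusted p = 0.194) had groups that did not overlap either, and did not pass. These 4 of 9 genes stand beside 28.7% of all tested genes whose groups did not overlap. IFIT5 was at 0.18 without CEP+4SU 2 (adjusted p = 0.678) and at 0.16 with the GC trend removed (0.611). Without CEP+4SU 1, where 4.42% of all genes were called, IRF3 passed at -0.45 (adjusted p = 0.0301). It was at -0.27 without CEP 2 and CEP+4SU 2 (adjusted p = 0.188). ISG15 (-0.081, SE 0.27), IFIT1 (-0.10, SE 0.15), IFIH1 (0.064, SE 0.26), ADAR (-0.021) and MAVS (-0.019) overlapped with DMSO, and ISG15 was at 0.18 without CEP+4SU 2. Of the 9 genes, 3 had an unadjusted p under 0.05, beside 21.4% of all genes. No interferon-stimulated gene of the 9 other than EIF2AK2 passed.

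The call of EIF2AK2 lay close to the threshold. It passed in 10 of 24 alternatives, with adjusted p from 0.00116 to 0.243 and a value above 0 in each. Leaving out 1 library at a time gave 0.31 to 0.49, and the call was kept without CEP 1, CEP 2 or CEP+4SU 1 and lost without any of the other 9 libraries. Without CEP+4SU 2, whose 153 CPM was the highest of all, the value was 0.31 (adjusted p = 0.243), and without that library and CEP 2 it was 0.31 (adjusted p = 0.0740).

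**Figure D4:**
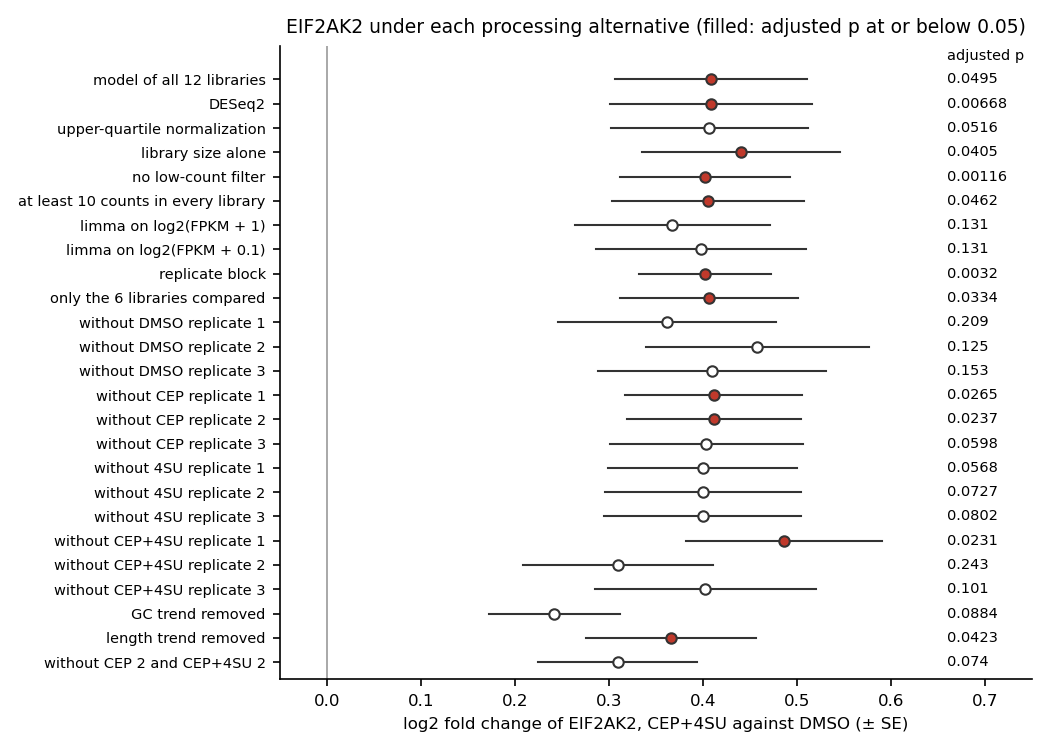
Log2 fold change (± SE) of EIF2AK2 with CEP+4SU against DMSO under each processing alternative, with the adjusted p at the right and filled points at or below 0.05. The values stay between 0.24 and 0.49, and 10 of the 24 alternatives keep the call.

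Base composition moved with this comparison. The genes called higher with both compounds had a median GC content of 39.8% and those called lower 59.4%, beside 48.5% for all tested genes (longest transcript). EIF2AK2 has 38.7% and IFIT5 37.4%, at the low end, and IRF3 59.0% and ISG15 63.4% at the high end. The other 5 lie between, from 42.2% (IFIT1) and 43.3% (IFIH1) through 49.3% (ADAR) and 52.1% (MAVS) to 52.6% (IRF1). With the GC trend of each library removed, EIF2AK2 with both compounds was at 0.24 (adjusted p = 0.0884) and IRF3 at -0.15 (adjusted p = 0.354). For 4SU averaged over CEP, EIF2AK2 was then at 0.18 with an adjusted p of 0.0298, which passes, in a fit that called 5.16% of all genes. What links GC content to the treatments was not tested.

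EIF2AK2 lies on chromosome 2 (37099210 to 37157065, minus strand, GRCh38), where its exons share 35 bases with those of GPATCH11 on the opposite strand. GPATCH11 was at 0.17 with both compounds (adjusted p = 0.339) and 0.22 for CEP averaged over 4SU (0.0872). For 4SU averaged over CEP it was at -0.056 (0.802). The exons of EIF2AK2 also share 401 bases with an opposite pseudogene, AC007899.1, which was at 0 to 0.269 CPM. The exons of IRF3 (chromosome 19, 49659569 to 49665875, minus strand) share 734 bases with the opposite gene BCL2L12, which was at -0.33 with both compounds (SE 0.15, adjusted p = 0.202) and -0.31 for CEP averaged over 4SU (SE 0.10, adjusted p = 0.0948), close to the values of IRF3. IRF1 (chromosome 5, 132481609 to 132490798) shares 1716 bases with C5orf56. The other 6 are protein-coding genes as well. IFIH1 lies on chromosome 2 (162267079 to 162318703, minus strand), ADAR on chromosome 1 (154582057 to 154628013, minus strand) and MAVS on chromosome 20 (3846799 to 3876123, plus strand). ISG15 lies on chromosome 1 (1001138 to 1014540, plus strand), and IFIT1 (89392546 to 89406486) and IFIT5 (89414586 to 89421001) are neighbours on the plus strand of chromosome 10. Whether the counting used strand is not given in the sources used here, and reads of such overlapping genes cannot be told apart without it. The 3 genes whose log2 CPM followed EIF2AK2 most closely over the 12 libraries, of 17728 compared, were PUS7L (Pearson r = 0.964), GK5 (0.951) and MKLN1 (0.949), as a description of libraries that share depth and treatment.

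The rest of the pathway was read from 8 lists of 145 genes, of which 104 had enough reads to be tested. With 4SU averaged over CEP, 0 of the 104 passed in edgeR, and 11 (10.6%) had an unadjusted p under 0.05 beside 12.6% of all genes. DESeq2 called 2, and 2.6% of all genes with an adjusted p. In 93 of the 104 the upper end of the 95% interval lay below a log2 fold change of 1. For the 60 interferon-stimulated genes, 43 were tested, 24 of these lay above 0 with 4SU, and the median was 0.018. The 36 of 43 whose interval stayed below 1 include IFI6 at 0.14 (SE 0.15) and B2M at -0.071 (SE 0.061). IFIT3, with at most 27 reads in a library, had the highest value of this list at 0.74 (SE 0.40, interval -0.097 to 1.58, adjusted p = 0.455), which leaves room for a change of that size.

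Of the other lists, the RNA sensors and their adaptors had a median of 0.0057 over 17 tested genes. RIG-I (DDX58), the sensor of 5′ triphosphate RNA, was at -0.13 (SE 0.15). RNF135, a ubiquitin ligase that acts on RIG-I, was at 0.32 (SE 0.086, adjusted p = 0.103), the smallest adjusted p of all list genes for 4SU. STAT2, a transcription factor of the interferon response, was at 0.27 (SE 0.079, adjusted p = 0.135), and the RNA helicase DHX9 at -0.17 (SE 0.049, adjusted p = 0.128). The medians were -0.027 for signalling to IRF3 and NF-kB (16 genes), -0.015 for interferons and their receptor pathway (14), 0.15 for the IRF family (7), 0.046 for NF-kB targets (12), -0.028 for double-stranded RNA-binding proteins (16) and 0.22 for the IFIT family (3). No gene of these lists passed for 4SU in the reported edgeR model. The lists overlap in their genes.

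**Figure D5:**
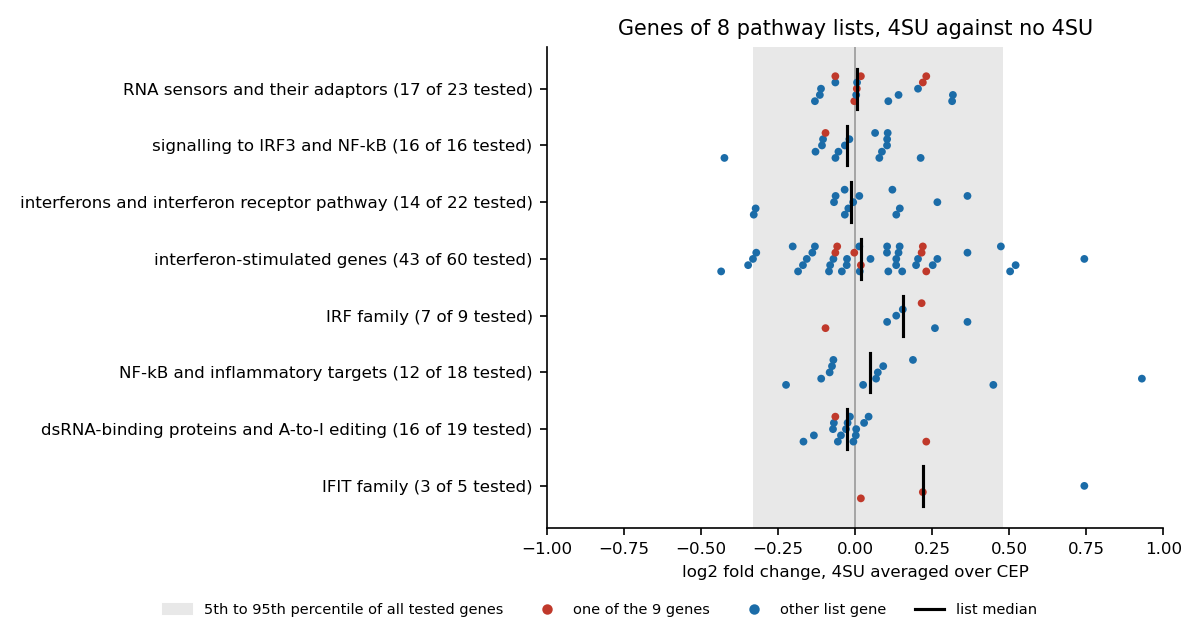
Log2 fold change with 4SU averaged over CEP for each tested gene of the 8 lists (points, the 9 genes in red), with list medians as black bars and the 5th to 95th percentile of all tested genes (-0.33 to 0.48) shaded. Of the 104 list genes, 97 lie inside the shaded range, 4 lie above it (CXCL3 at 0.93, IFIT3 at 0.74, GBP1 at 0.52 and ISG20 at 0.50) and 3 lie below it (PSMB9 at -0.44, IKBKE at -0.42 and IFI35 at -0.35).

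The messages of the 8 interferon genes on the lists were at the limit of detection in all groups. IFNA1 was the only alpha interferon among them, and other interferon genes were not read. Of the 8 genes, 5 had any read. All 8 together had 6 reads in the 3 DMSO libraries, 6 with CEP, 5 with 4SU and 6 with both. IFNB1, an interferon made early after RNA sensing, had 1 read, in a DMSO library. IFNA1 had 1 read with both compounds, IFNK 3 with both, IFNL1 5 in 4 libraries and IFNE 13 in 5 libraries. IFNL2, IFNL3 and IFNG had none, nor had OAS1, OAS2 and TLR8. A count of 0 allows up to 0.122 to 0.181 CPM (3 reads of the library's total, counting error only). MX1 (7 reads in 12 libraries), RSAD2 (7), CXCL10 (13) and IFI44 (12), all of which interferon induces strongly in many cells, had too few reads to be tested.

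The receptor side of the pathway was found at uneven levels. In DMSO, IFNAR1 was at 15.4 FPKM and IFNGR1 at 17.8 FPKM, whereas IFNAR2 was at 0.451 FPKM. JAK1 was at 19.3 FPKM, whereas IRF9 was at 0.163 FPKM and the lambda receptor chain IL10RB at 0.156 FPKM. With 4SU these were 17.1, 18.4, 0.569, 19.4, 0.208 and 0.164 FPKM in the same order. None of these genes passed in any of the 7 comparisons.

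Across all 7 comparisons, 3 list genes passed, each with both compounds against DMSO. Besides EIF2AK2, TBK1, the kinase that phosphorylates IRF3, rose by 0.48 (SE 0.094, adjusted p = 0.0262), from 42.2, 38.1 and 44.8 CPM with DMSO to 56.1, 61.9 and 56.3 CPM with both. LGALS3BP, a secreted glycoprotein on the list of interferon-stimulated genes, fell by 0.47 (SE 0.12, adjusted p = 0.0496), from 66.5, 69.5 and 67.2 CPM to 57.6, 40.4 and 48.5 CPM. The groups of both genes did not overlap, beside 28.7% of all tested genes. The 3 genes are 2 higher and 1 lower of 104 tested, beside the 1.64% called among all genes. TBK1 was at 49.6, 55.1 and 49.2 CPM with 4SU alone and 48.3, 56.4 and 54.8 CPM with CEP alone. Both groups lay above DMSO, in comparisons where 17.9% (4SU) and 23.7% (CEP) of all tested genes had groups that did not overlap. TBK1 was at 0.21 for 4SU averaged over CEP (SE 0.066, adjusted p = 0.156) and at 0.27 for CEP averaged over 4SU (SE 0.066, adjusted p = 0.0653). Its call was lost without any 1 of the DMSO libraries (adjusted p = 0.0816 to 0.124), without CEP+4SU 2 (0.43, adjusted p = 0.0947) or without CEP+4SU 3 (0.49, adjusted p = 0.0630), and kept without CEP 2 and CEP+4SU 2 together (0.43, adjusted p = 0.0239). The call of LGALS3BP held without CEP 1, CEP 2, 4SU 1 or CEP+4SU 1 and was lost without any other library, with -0.35 without CEP+4SU 2 (adjusted p = 0.242).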

How the data were processed

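Reads were aligned to GRCh38 with HISAT2 2.0.5 and counted on genes with featureCounts 1.5.0-p3 by the authors, after poly-T selection of mRNA, and the counts were deposited raw, as whole numbers. The authors also deposited FPKM, which they derived from the counts with gene length and adjusted library sizes, and which served here for levels and for the limma alternatives. Gene names, lengths and positions came with the table, and 58735 of 58735 identifiers are in GENCODE 29.

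Counts were analysed with edgeR 4.0.16 in R 4.3.3. Genes were filtered with filterByExpr (minimum count 10, minimum total 15), which kept 17729, normalized with TMM (factors 0.972 to 1.025) and fitted in 4 groups with a quasi-likelihood model without a replicate block. Fold changes used a prior count of 0.125. Standard errors and 95% intervals come from the fitted information scaled by the quasi-likelihood dispersion. The 7 comparisons were adjusted by Benjamini-Hochberg over all tested genes at 0.05. The study's methods print a threshold of 0.5 for DESeq2. As an alternative, 0.5 was set here on the edgeR adjusted p, while DESeq2 was run at 0.05. Other alternatives were DESeq2 1.42.0, limma 3.58.1 on log2(FPKM + 1) and log2(FPKM + 0.1), other normalizations and filters, a replicate block and leaving out each library. Removal of GC and length trends, and leaving out CEP 2 and CEP+4SU 2 together, were chosen after seeing the data. The fit was also run on counts simulated with the same dispersion for every gene and without replicate or GC effects. That run cannot show how the fit handles such effects in these libraries.

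The 9 genes and the gene lists were chosen with earlier results of these data known. Text names the 9 genes, list genes that pass, interferon genes with counts, and the 3 genes most like EIF2AK2; other list genes were chosen after their values were seen. RefSeq promoters (GRCh38.p14) were searched for motifs. Intervals and limits cover counting error and the spread between libraries as stated. The values of 1 list gene are left out, though the totals of the lists include it.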

Additional observations from a re-analysis of the deposited data

How the results depend on the processing

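For 4SU averaged over CEP, 0 of the 9 genes passed in the reported model. EIF2AK2 alone passed without the filter on low counts (1 call), with the replicate block (1) and with the GC trend removed (1). The study's threshold of 0.5, set on the edgeR adjusted p, gave 3. The list genes gave 0 calls, and 2 with DESeq2, 1 without the filter, 1 with the block and 3 with the GC trend removed. For CEP against DMSO, the 0 calls among the 9 became 2 at 0.5, and the 0 list calls became 2 with DESeq2, 1 without the filter, 2 with the block and 0 to 2 without 1 library (2 without CEP 1). For CEP averaged over 4SU, the 9 gave 0 calls, then 1 with DESeq2, 1 without the filter, 2 with the block, 3 at 0.5 and 0 to 2 without 1 library (2 without CEP 1, 1 without CEP+4SU 1). The lists gave 6 with DESeq2, 6 without the filter, 7 with the block, 1 with the length trend removed and 0 to 8 without 1 library (8 without CEP 1, 5 without CEP+4SU 1).

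With both compounds against DMSO, the 1 call among the 9 became 2 with DESeq2, without the filter and with the block, 4 at 0.5, and 0 with upper-quartile normalization, with limma (pseudocounts 1 and 0.1), with the GC trend removed and without CEP 2 and CEP+4SU 2 together. Leaving out 1 library gave 0 to 2. The 3 list calls became 7 with DESeq2, 5 without the filter, 7 with the block, 1 with the GC trend removed, 1 without CEP 2 and CEP+4SU 2, and 0 to 6 without 1 library (6 without CEP+4SU 1, 0 without any DMSO library, CEP+4SU 2 or CEP+4SU 3). EIF2AK2 lost its call at 0.41 with upper-quartile normalization (adjusted p = 0.0516), at 0.37 and 0.40 with limma (0.131 in both), at 0.24 with the GC trend removed and at 0.31 without CEP 2 and CEP+4SU 2, and ranged from 0.31 to 0.49 without 1 library. TBK1 lost it with limma (0.44 and 0.47) and ranged from 0.42 to 0.53. LGALS3BP lost it at -0.44 with library size alone, -0.46 and -0.48 with limma, -0.28 with the GC trend removed and -0.35 without CEP 2 and CEP+4SU 2, and ranged from -0.62 to -0.35. IRF3 passed as lower with DESeq2 (adjusted p = 0.0315), without the filter (0.0421), with the block (0.0166) and without CEP+4SU 1 (0.0301). The causes were not tested.

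Over all genes, same-numbered libraries deviated together only weakly (1 of 18 pairs with r over 0.1, -0.047 to 0.14). Still, 8 of 12 libraries correlated best with their own number. Replicate 1 was the lowest for EIF2AK2 and the highest for IRF3 in each group. The labels do not tie the numbers to shared cultures or days, so they were not taken as pairs in the reported model. No called value changed sign under any alternative. Counts over all tested genes ranged from 6 to 915 for 4SU averaged over CEP (99 reported), from 14 to 1667 for both compounds (290) and from 19 to 2269 for CEP averaged over 4SU (49). The block gave 336, 1667 and 2269, and with it EIF2AK2 was at 0.23 for 4SU averaged over CEP (adjusted p = 0.0205) and at 0.17 for CEP averaged over 4SU (0.0306). The counts among the 9 and the lists stand beside shares of all genes that moved too. For 4SU averaged over CEP these were 20.5% at 0.5, 2.6% with DESeq2, 0.873% without the filter, 1.9% with the block and 5.16% with the GC trend removed. For CEP against DMSO they were 44.4% at 0.5, 2.63% with DESeq2, 1.86% without the filter, 4.4% with the block and 6.61% without CEP 1. For CEP averaged over 4SU they were 52.3%, 15.6%, 4.06%, 12.8% and 11.8% in that order, with 0.829% with the length trend removed and 6.16% without CEP+4SU 1. For both compounds they were 47% at 0.5, 10.6% with DESeq2, 3.46% without the filter, 9.4% with the block, 1.76% with upper-quartile normalization, 0.993% with the GC trend removed, 0.863% without CEP 2 and CEP+4SU 2, and 4.42% without CEP+4SU 1. Depth limits ISG15, IFIH1 and IRF1 most.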
